A study of Mus musculus with 12 samples.

Results

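The 34 genes described here mark hepatic stellate cells or build and remodel the extracellular matrix of the liver. They comprise 9 markers of quiescent stellate cells and of their identity (*Lrat*, *Reln*, *Des*, *Ngfr*, *Hhip*, *Colec11*, *Cygb*, *Rgs5* and *Ecm1*), 11 collagen genes, 3 genes of small matrix proteins that bind collagen (*Lum*, *Dcn* and *Dpt*), and 11 genes of activation and remodelling. The last group holds the contractile genes *Acta2* and *Tagln*, the growth factor gene *Tgfb1*, the receptor genes *Pdgfra* and *Pdgfrb*, and *Timp1*, *Timp2*, *Mmp2*, *Lox*, *Loxl1* and *Sparc*. The genes were taken by symbol from the 24532 genes of the table. All 34 were listed, and all 34 were among the 14038 genes with enough counts to be tested.

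Stellate cells lie between the hepatocytes and the sinusoidal endothelium and store vitamin A as retinyl esters while they are quiescent. After injury they activate to contractile myofibroblasts, which deposit fibrillar collagen under the influence of TGF-β and PDGF. Basement membrane collagen is also made by endothelial cells, and desmin, smooth muscle actin and transgelin also occur in vascular smooth muscle, so none of these RNAs is particular to stellate cells in whole liver.

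Polyadenylated RNA was sequenced from the livers of male C57BL/6 mice in 4 groups of 3 livers. WT mice were *Ahr* fl/fl littermates without the Cre gene, and *Ahr* HKO mice were *Ahr* fl/fl *Alb-Cre*, in which loxP sites flank the second exon of *Ahr*. Each genotype received a control liquid diet or the isocaloric Lieber-DeCarli diet with ethanol at 5% of the volume and 36% of the calories, for 5 weeks from an age of 10 to 12 weeks. The floxed alleles were common to all 4 groups, and Cre was driven by the albumin promoter, which is active in hepatocytes, so that the *Ahr* gene of stellate cells was not the target. The groups are written WT-con, WT-EtOH, *Ahr* HKO-con and *Ahr* HKO-EtOH.

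The libraries held 46306518 to 74336255 reads on genes. Expression is given as CPM, the read count of a gene scaled to a common library size with the TMM factors of edgeR, and DEGs had an adjusted *P* value under 0.05 in the edgeR quasi-likelihood test with Benjamini-Hochberg adjustment over all 14038 genes. In bulk liver, fewer cells of a type and less RNA per cell cannot be told apart, and the *P* values measure the spread between these livers only. The targeted gene, *Ahr*, had 20.2, 16.6 and 18.3 CPM in WT-con livers and 65.5, 41.3 and 63.3 CPM in *Ahr* HKO-con livers, and its count sums over all exons, so that it does not check the deletion of the second exon or the genotype labels. *Cyp1a2*, an AhR target, averaged 154 CPM in *Ahr* HKO-con against 490 CPM in WT-con (log2 FC -1.67, adjusted *P* = 0.0197), whereas *Cyp1a1*, another AhR target, averaged 0.723 against 0.256 CPM (log2 FC 1.5, adjusted *P* = 0.0453). A list of 7 genes, *Ahr* and its targets, summed to 422 to 647 CPM in WT-con and 1046 to 1276 CPM in WT-EtOH. In *Ahr* HKO livers it summed to 162 to 342 CPM on the control diet and 693 to 734 CPM on ethanol, so the sum was higher on ethanol in both genotypes. The 11 hepatocyte markers summed to between 97850 and 154800 CPM in the 12 libraries, and no list of markers of other cell types held a gene that was at 0 in all of them.

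A count was found in every library for 33 of the 34 genes, the stellate cell markers *Lrat*, *Reln*, *Des*, *Ngfr* and *Cygb* included, and *Timp1* was the exception. On the FPKM scale, which accounts for gene length, *Dcn* was the most abundant with a mean of 70.2 FPKM over the 12 libraries, followed by *Ecm1* with 66.1 and *Colec11* with 23.0 FPKM. *Dcn* encodes decorin, a proteoglycan that decorates collagen fibrils. *Ecm1* encodes a secreted protein known in liver for holding latent TGF-β inactive, which hepatocytes also make, and *Colec11* encodes a lectin of the complement system. The ranges of *Dcn* (50.4 to 111 FPKM) and *Ecm1* (41.6 to 89.7 FPKM) overlapped, and both lay above that of *Colec11* (12 to 37.1 FPKM). By group mean *Ecm1* exceeded *Dcn* in WT-con (61.9 against 60.7 FPKM) and in *Ahr* HKO-EtOH (83.3 against 65.3 FPKM). Among only the 11 collagen genes of the 34, *Col4a1* was the most abundant over the 12 libraries. It averaged 7.91 FPKM, ahead of *Col14a1* at 6.25 and *Col3a1* at 4.54 FPKM, although its range, 4.65 to 18.2 FPKM, overlapped theirs. That order rested on *Ahr* HKO-con, where *Col4a1* averaged 15.3 FPKM. In WT livers *Col14a1* and *Col3a1* came before it, with 6.55, 5.85 and 4.95 FPKM for *Col14a1*, *Col3a1* and *Col4a1* in WT-con and 8.21, 6.99 and 6.24 FPKM in WT-EtOH. The lowest levels were those of *Hhip* at 0.152 FPKM and *Lox*, a collagen cross-linking enzyme gene, at 0.0642 FPKM.

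Across the 4 groups, the mean CPM was highest in WT-EtOH for 19 of the 34 genes, which is 55.9%, against 22.9% of all genes tested. It was lowest in *Ahr* HKO-con for 18 of them, which is 52.9% against 33.1% of all genes, and in *Ahr* HKO-EtOH for 12, which is 35.3% against 24.5%. None of the 11 activation genes and none of the 9 collagen genes other than type IV was lowest in a WT group, where 21.9% of all genes were lowest in WT-con and 20.5% in WT-EtOH. The plot of all genes by library shows these blocks.

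**Figure D1:**
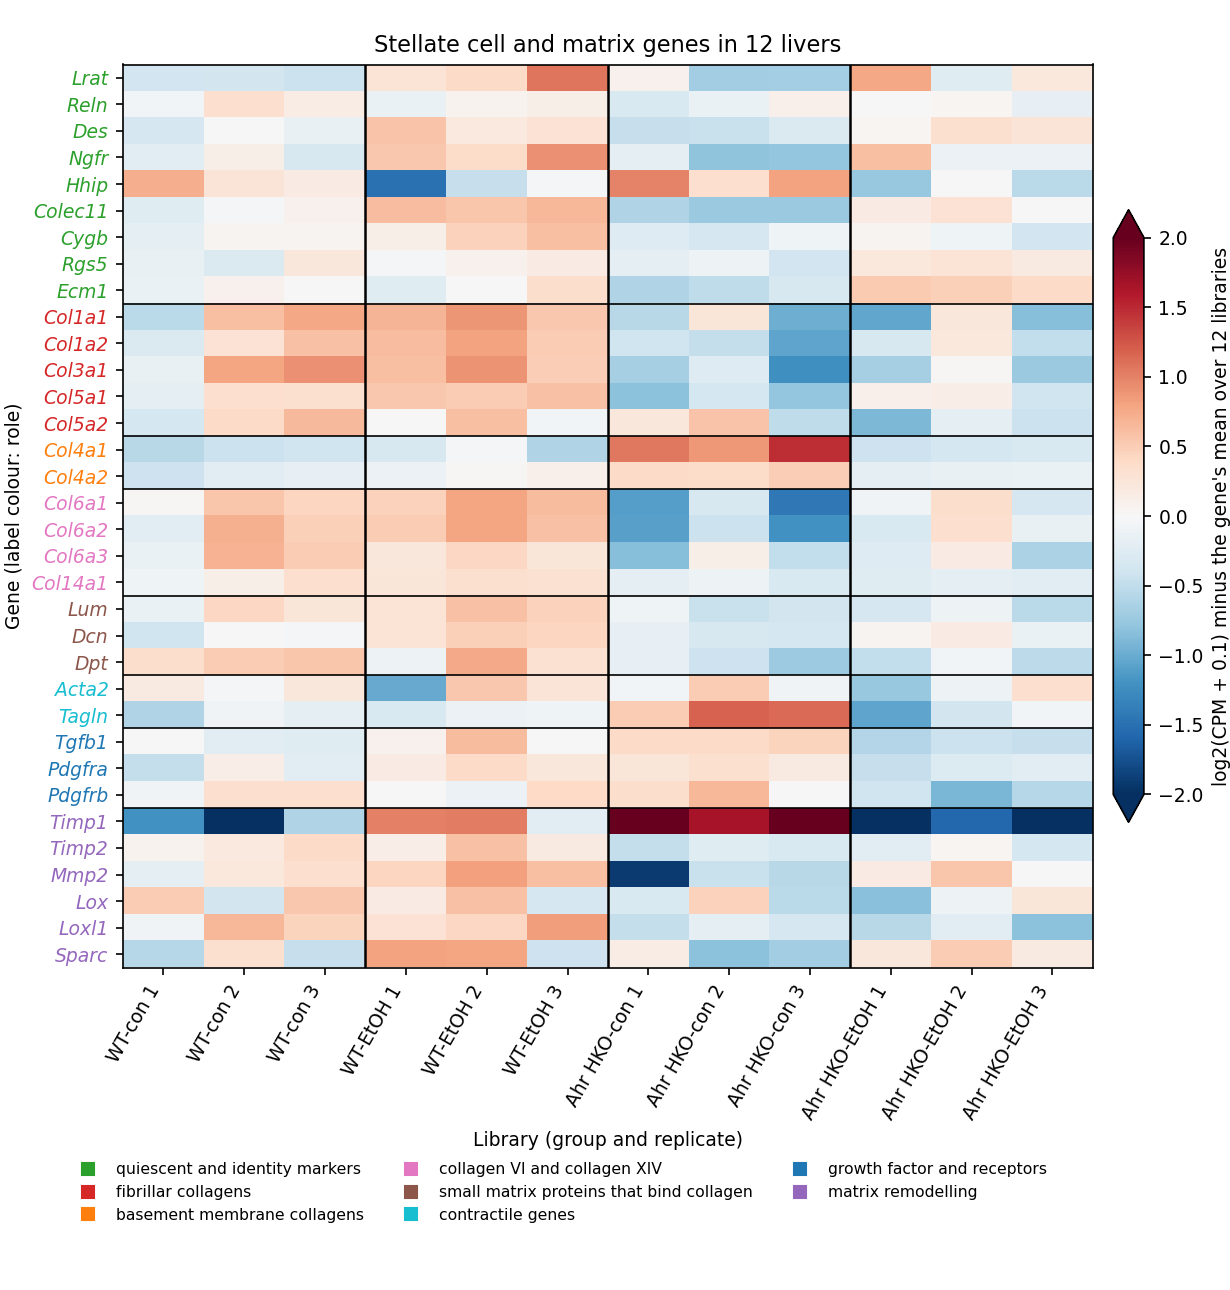
Level of the 34 genes (rows, label colour by role) in each of the 12 libraries (columns), as log2(CPM + 0.1) minus the mean of the gene over the 12 libraries; colours saturate at 2 in either direction. The group means of the fibrillar collagen and collagen VI genes were lower in both *Ahr* HKO groups than in both WT groups. Single livers overlapped for some of these genes, and WT-con liver 1 was also low. *Col5a2* differed little on the control diet, with means of 3.60 CPM in *Ahr* HKO-con and 3.94 CPM in WT-con. *Col4a1*, *Col4a2*, *Tagln* and *Timp1* stood out as high in *Ahr* HKO-con.

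Promoter sequences are shown for *Col4a1*, *Col4a2* and *Timp1*, the matrix genes that were highest in *Ahr* HKO-con, and the genes and the motif were chosen after their values were seen. RefSeq (GRCm38.p6) gave a window from 250 bases before to 50 bases after the start site for 23 of the 34 genes. *Col4a1* and *Col4a2*, which encode the chains of the main basement membrane collagen, lie head to head on chromosome 8 with start sites 21 bases apart on opposite strands. Their windows, chr8:11312777-11313076 on the minus strand and chr8:11312555-11312854 on the plus strand, share the 78 bases of chr8:11312777-11312854, given in capitals. The *Timp1* window, chrX:20869916-20870215 on the plus strand, holds a single match to TGAGTNA, the motif bound by AP-1 factors, at bases 277 to 283 from its 5′ end, also in capitals.
Col4a1: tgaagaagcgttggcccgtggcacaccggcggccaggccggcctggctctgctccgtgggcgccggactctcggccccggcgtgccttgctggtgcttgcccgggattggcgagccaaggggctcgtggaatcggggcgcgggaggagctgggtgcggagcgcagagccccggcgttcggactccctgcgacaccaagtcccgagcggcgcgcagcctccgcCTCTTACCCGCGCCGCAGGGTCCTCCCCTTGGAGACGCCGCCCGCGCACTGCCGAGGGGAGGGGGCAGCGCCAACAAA
Col4a2: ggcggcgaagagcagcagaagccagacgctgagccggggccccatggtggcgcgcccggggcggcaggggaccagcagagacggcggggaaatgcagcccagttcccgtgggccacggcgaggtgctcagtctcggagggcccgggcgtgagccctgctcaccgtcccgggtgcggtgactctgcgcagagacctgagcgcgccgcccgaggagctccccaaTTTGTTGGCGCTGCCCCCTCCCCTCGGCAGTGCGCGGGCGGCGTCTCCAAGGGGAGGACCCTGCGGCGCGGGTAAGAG
Timp1: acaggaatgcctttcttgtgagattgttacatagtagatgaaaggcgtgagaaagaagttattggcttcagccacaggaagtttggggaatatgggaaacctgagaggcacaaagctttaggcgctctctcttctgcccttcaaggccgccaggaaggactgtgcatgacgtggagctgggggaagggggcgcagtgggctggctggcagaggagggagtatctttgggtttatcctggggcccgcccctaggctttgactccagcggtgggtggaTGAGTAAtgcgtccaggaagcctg

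All 3 are read 5′ to 3′ on the strand of the gene, so that the capitals of the *Col4a* windows are reverse complements of each other. Searched on both strands, TGAGTNA occurred in the windows of 3 of the 23 genes (13%, *Col6a1*, *Ecm1* and *Timp1*) and of 16.7% of 27025 mouse genes. The core GCGTG of the AhR binding site occurred in 10 of the 23 (43.5%), both *Col4a* genes and *Timp1* included, against 35.2% of all genes. CAGAC, the short motif of SMAD proteins, occurred in 13 (56.5%) against 53.2%, and the CArG box of serum response factor in 0 against 1.81%. These are matches of letters in a short window and not sites of binding.

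On the control diet, the comparison of *Ahr* HKO with WT asked how targeting *Ahr* in hepatocytes alters these genes without alcohol. *Ahr* HKO-con livers held about 3 times the *Col4a1* RNA of WT-con livers and more *Col4a2*, *Tagln*, *Tgfb1* and *Timp1*. They held less RNA of the fibrillar collagen genes *Col3a1*, *Col1a2* and *Col5a1*, of *Col6a1* and *Col6a2*, and of *Dpt*, *Colec11*, *Timp2* and *Ecm1*. Thus 14 of the 34 genes (41.2%) were DEGs, against 29.6% of all genes tested. Of these, 5 were higher (15.4% of all genes were) and 9 lower (14.2%), and the groups did not overlap for 18 of the 34, against 47.3% of all genes.

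Among the quiescent markers, 2 of 9 passed the test. *Colec11* fell, with 26.9, 30.8 and 33.5 CPM in WT-con and 20.9, 19.0 and 18.9 CPM in *Ahr* HKO-con (log2 FC -0.63 ± 0.106 (SE), adjusted *P* = 0.00574). *Ecm1* fell from 115, 134 and 125 CPM to 82.7, 89.0 and 101 CPM (log2 FC -0.45 ± 0.117, adjusted *P* = 0.0251), and neither gene had overlapping groups. *Lrat*, whose enzyme makes the retinyl esters that stellate cells store, had 17.4, 17.4 and 16.7 CPM in WT-con against 24.0, 13.9 and 14.1 CPM in *Ahr* HKO-con, with 1 *Ahr* HKO liver above and the others below the WT livers (log2 FC 0.02, adjusted *P* = 0.96). *Reln*, *Des*, *Ngfr*, *Hhip*, *Cygb* and *Rgs5* also had overlapping groups, with log2 FCs between -0.44 and 0.35. The median log2 FC of the 9 markers was -0.24, against -0.000962 over all genes.

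The collagen genes split by type. All 9 that are not type IV had negative log2 FCs, with a median of -0.81, and 5 of them passed the test. *Col3a1*, the gene of a fibrillar collagen abundant in liver, had 20.7, 39.7 and 43.2 CPM in WT-con and 14.4, 19.0 and 9.70 CPM in *Ahr* HKO-con (log2 FC -1.26 ± 0.324, adjusted *P* = 0.0243). The groups were apart, but WT-con liver 1 lay closer to the *Ahr* HKO livers than to the other WT livers. *Col6a1* and *Col6a2* encode chains of beaded-filament collagen VI. *Col6a1* had 9.82, 14.3 and 13.1 CPM in WT-con against 4.48, 7.71 and 3.55 CPM (log2 FC -1.24 ± 0.292, adjusted *P* = 0.0185), and *Col6a2* changed alike (log2 FC -1.26 ± 0.303, adjusted *P* = 0.0196). *Col1a2* (log2 FC -0.86) and *Col5a1* (log2 FC -0.81) were the other DEGs. *Col1a1*, the partner chain of *Col1a2*, was 7.20, 16.1 and 18.0 CPM in WT-con and 7.15, 12.5 and 5.28 CPM in *Ahr* HKO-con, and it did not pass (log2 FC -0.73 ± 0.407, adjusted *P* = 0.219). *Col5a2*, *Col6a3* and *Col14a1* did not pass either, with log2 FCs of -0.13, -0.76 and -0.33.

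Type IV collagen went the other way. *Col4a1* (GRCm38 chromosome 8, 11198423 to 11312826) had 32.4, 35.5 and 36.2 CPM in WT-con and 99.5, 87.2 and 132 CPM in *Ahr* HKO-con, with a wide gap between the groups (log2 FC 1.62 ± 0.167, adjusted *P* = 0.00127). *Col4a2* (chromosome 8, 11312805 to 11449287) had 21.7, 24.8 and 25.96 CPM against 37.9, 37.5 and 40.8 CPM (log2 FC 0.69 ± 0.1, adjusted *P* = 0.00345). The chains share the start region shown above, and the ratio of *Col4a1* to *Col4a2* in FPKM was 1.40 ± 0.0495 (SD, n = 3) in WT-con and 2.66 ± 0.457 in *Ahr* HKO-con, without overlap. The sum of the type IV genes over that of the 5 fibrillar genes, also in FPKM, was 0.567 to 0.992 in WT-con livers and 2.13 to 5.47 in *Ahr* HKO-con livers. *Col4a* RNA is also endothelial: of 13 sinusoidal endothelial markers 1 rose (*Pecam1*, log2 FC 0.64), and their summed level was 524 to 662 CPM in WT-con and 588 to 631 CPM in *Ahr* HKO-con. Their part in the result was not tested.

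**Figure D2:**
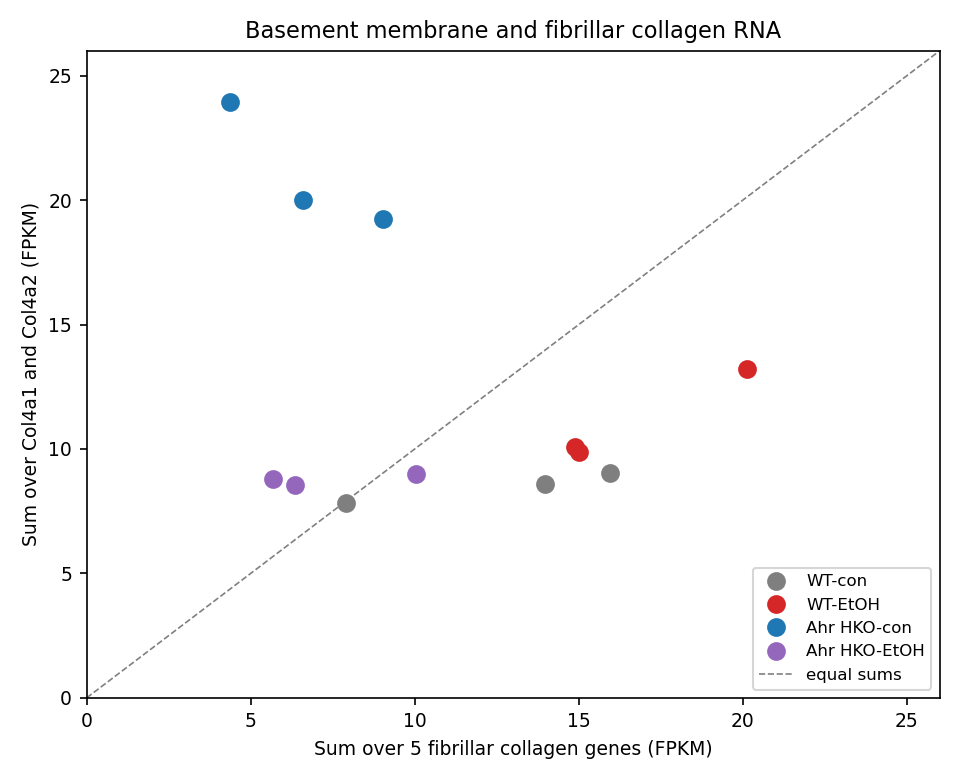
Sum of *Col4a1* and *Col4a2* against the sum of the 5 fibrillar collagen genes in FPKM, with a point for each liver and a dashed line of equal sums. The 3 *Ahr* HKO-con livers lie far above the line, between 19.2 and 24.0 FPKM of type IV collagen, and the WT-EtOH livers lie below it at 14.9 to 20.1 FPKM of fibrillar collagen.

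Of the activation genes, *Timp1* changed most. It encodes an inhibitor of matrix metalloproteinases and lies on chromosome X (20870166 to 20874735). Its counts were 4, 0 and 9 in WT-con livers and 493, 74 and 83 in *Ahr* HKO-con livers, or 8.05, 1.26 and 1.67 CPM in the latter, and liver 1 stood above the others (log2 FC 5.35 ± 1.08, adjusted *P* = 0.0105). The fold rests on few WT counts and depends on the prior count of the fit. *Timp1* lies within *Syn1* on the opposite strand, and the strand setting of the counting is not given in the sources used here. The overlap is one of gene spans and exons were not compared, so whether *Syn1* reads entered the *Timp1* counts was not tested. *Tagln*, an actin-binding protein of contractile cells, rose from 5.98, 8.73 and 8.10 CPM to 13.1, 20.8 and 20.2 CPM (log2 FC 1.25 ± 0.219, adjusted *P* = 0.00647). *Acta2*, the gene of smooth muscle actin and the usual mark of myofibroblasts, had 4.96, 4.25 and 5.15 CPM against 4.21, 6.26 and 4.15 CPM, with overlapping groups (log2 FC 0.03 ± 0.199, adjusted *P* = 0.922).

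*Tgfb1*, the ligand that drives collagen synthesis, rose from 8.75, 7.43 and 7.28 CPM to 11.4, 11.3 and 11.8 CPM (log2 FC 0.56 ± 0.117, adjusted *P* = 0.0117). All 12 Kupffer cell markers had a positive log2 FC here (median 0.463), of which edgeR called 1. They summed to 523 to 684 CPM in WT-con and to 1291, 857 and 490 CPM in *Ahr* HKO-con livers. Liver 1, the highest of these, was also highest for *Timp1*. The part of Kupffer cells in the levels of *Tgfb1* and *Timp1* was not tested. The PDGF receptor genes did not pass, with log2 FCs of 0.42 for *Pdgfra* and 0.16 for *Pdgfrb*. *Timp2*, a second metalloproteinase inhibitor, fell (log2 FC -0.56 ± 0.127, adjusted *P* = 0.0157). *Mmp2*, a gelatinase that degrades type IV collagen, had 3.01, 4.02 and 4.38 CPM in WT-con and 0.849, 2.51 and 2.32 CPM in *Ahr* HKO-con, without overlap and without passing (log2 FC -1.01 ± 0.392, adjusted *P* = 0.0928). The cross-linking enzyme genes *Lox* and *Loxl1* had log2 FCs of -0.43 and -0.73, and *Sparc*, a collagen-binding matricellular protein gene, -0.20. Of the small matrix proteins, *Dpt*, which encodes dermatopontin, fell from 6.07, 6.75 and 6.95 CPM to 4.20, 3.53 and 2.82 CPM (log2 FC -0.90 ± 0.174, adjusted *P* = 0.00914), and *Lum* and *Dcn* did not pass.

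The calls for the fibrillar and type VI collagens depended on single livers. The number of DEGs among the 34 was 16 without WT-con liver 1, 8 without WT-con liver 2, 7 without WT-con liver 3 and 9 without *Ahr* HKO-con liver 1. *Col4a1*, *Col4a2*, *Tagln*, *Timp1*, *Colec11* and *Dpt* passed in all 6 fits that left out a liver, whereas *Col3a1* passed in 2 of 6, with adjusted *P* values between 0.0152 and 0.0797.

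Genes that act with these 34 were read from lists of pathway members. Of 23 further genes of the TGF-β pathway, 5 rose and 7 fell in *Ahr* HKO-con, and the median log2 FC was -0.168. Among those that rose were *Thbs1*, whose product activates latent TGF-β (log2 FC 2.23), and *Skil*, a SMAD corepressor gene (log2 FC 1.06). Of 4 PDGF ligand genes, *Pdgfc* rose (log2 FC 1.01, adjusted *P* = 0.00377). Of 21 genes for collagen maturation, 5 rose and 2 fell, including the prolyl hydroxylase gene *P3h1* (log2 FC 0.91) and the procollagen peptidase gene *Adamts2* (log2 FC -0.92). Of 33 other matrix genes 6 rose and 5 fell, with *Col12a1* up (log2 FC 1.74) and *Col5a3* and the elastin gene *Eln* down (log2 FC -1.87 and -1.44). Of 16 genes of matrix proteases and their inhibitors, the urokinase receptor gene *Plaur* (log2 FC 2.36), *Mmp14* (1.15) and *Mmp8*, which averaged under 1 CPM, rose, and *Mmp15* fell (-1.87). Of 14 genes of retinoid handling, 3 rose and 4 fell, and *Dhrs3*, *Rarb* and *Cyp26a1*, all known to be induced by retinoic acid, were among the latter (log2 FC -1.42, -1.27 and -1.29).

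In WT mice, the comparison of ethanol with the control diet asked what alcohol alone does to these genes. Ethanol raised 4 of the 34 genes, *Lrat*, *Ngfr*, *Colec11* and *Dcn*, and lowered none. These 4 are 11.8% of the 34 against 9.47% of all genes tested (4.84% higher and 4.63% lower), and 3 of them are quiescent markers. The groups did not overlap for 12 of the 34, against 32.9% of all genes, so both counts were close to the background. The median log2 FC was 0.27 over the 34 genes and 0.03 over all genes.

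*Lrat* rose from 17.4, 17.4 and 16.7 CPM to 27.3, 29.4 and 47.8 CPM, with every ethanol liver above every control liver (log2 FC 1.03 ± 0.209, adjusted *P* = 0.0278). *Lrat* lies within the span of *Rbm46os*, a gene on the opposite strand, and the strand setting of the counting is not given. Exons were not compared, so whether *Rbm46os* reads entered the *Lrat* counts was not tested. *Colec11* rose from 26.9, 30.8 and 33.5 CPM to 48.9, 46.6 and 50.2 CPM (log2 FC 0.69 ± 0.101, adjusted *P* = 0.0109). *Ngfr*, the gene of the low-affinity neurotrophin receptor, had 4.98, 6.27 and 4.60 CPM in WT-con and 8.42, 7.51 and 10.9 CPM in WT-EtOH (log2 FC 0.77 ± 0.189, adjusted *P* = 0.0479). *Des*, which encodes the intermediate filament protein desmin, was higher in every ethanol liver without passing (log2 FC 0.54 ± 0.156, adjusted *P* = 0.078). *Hhip*, an inhibitor of hedgehog ligands, had 2.21, 1.57 and 1.45 CPM against 0.397, 0.906 and 1.27 CPM, the only quiescent marker that was lower in every ethanol liver (log2 FC -0.996 ± 0.437, adjusted *P* = 0.2). *Reln*, *Cygb*, *Rgs5* and *Ecm1* had log2 FCs between -0.12 and 0.45.

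Among the matrix genes, *Dcn* rose from 99.4, 130 and 127 CPM to 159, 182 and 176 CPM, with no overlap (log2 FC 0.55 ± 0.13, adjusted *P* = 0.0434). None of the 11 collagen genes listed at the start passed the edgeR test. Of these 11, 2 had an unadjusted *P* value under 0.05, *Col5a1* (log2 FC 0.39) and *Col4a2* (log2 FC 0.28). DESeq2 and limma called none of the 11 either. The log2 FCs of these 11 collagen genes ran from -0.09 to 0.42. None of the 11 activation genes passed the edgeR test, 3 had an unadjusted *P* value under 0.05, DESeq2 called *Timp1*, and limma on log2(FPKM + 1) called *Timp1* and *Pdgfra*. *Timp1* counts were 4, 0 and 9 in WT-con and 41, 49 and 17 in WT-EtOH livers, which did not overlap (log2 FC 2.76 ± 0.947, adjusted *P* = 0.117). *Acta2* was lowest and highest in ethanol livers, with 2.12, 6.39 and 5.22 CPM (log2 FC -0.04 ± 0.372).

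*Colec11* passed in all 6 fits that left out a liver and *Lrat* in 3 of them, while *Ngfr* and *Dcn* passed in none, so that 1 gene passed without any given control liver and 2 without any given ethanol liver. In the pathway lists, ethanol in WT livers raised the membrane metalloproteinase gene *Mmp14* (log2 FC 0.77, adjusted *P* = 0.0259), the elastic fibre gene *Emilin1* (0.65), the basement membrane gene *Nid1* (0.44) and the lysyl hydroxylase gene *Plod1* (0.48), and lowered *Col5a3* (-0.82). *Cyp26a1*, which degrades retinoic acid, rose from 4.88 to 60.5 CPM (log2 FC 3.64, adjusted *P* = 0.00182), and *Rdh11* and *Bco1* fell (log2 FC -1.21 and -0.82). None of the 12 Kupffer cell and none of the 13 sinusoidal endothelial markers passed the edgeR test in this comparison, and none had an unadjusted *P* value under 0.05. The WT-EtOH livers differed widely among themselves, with liver 2 highest. Kupffer cell markers summed to 494.6, 1158 and 477.3 CPM and endothelial markers to 371.1, 834 and 445.5 CPM in WT-EtOH livers 1, 2 and 3. All 10 portal fibroblast and mesothelial markers tested had a positive log2 FC (median 1.1, sums of 6.70 to 10.1 CPM in WT-con and 9.57 to 16.5 CPM in WT-EtOH), of which edgeR called 0 and 2 had an unadjusted *P* value under 0.05, and their part in the member levels was not tested.

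**Figure D3:**
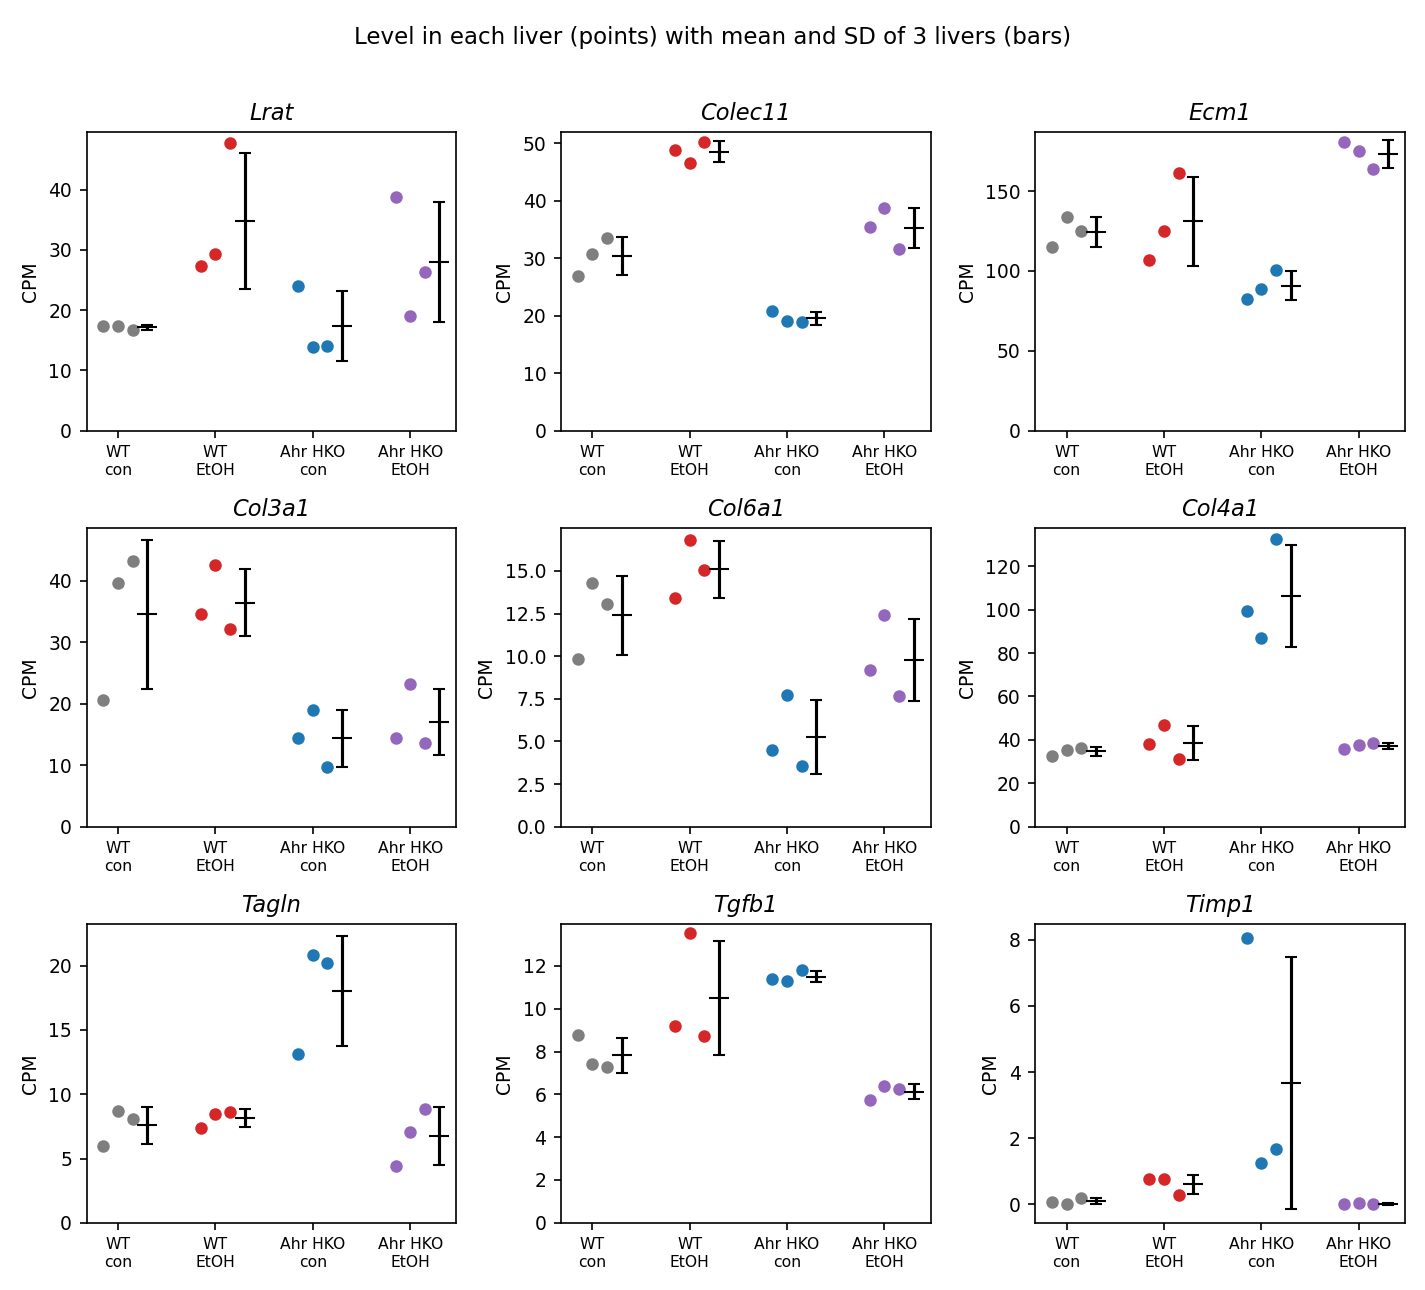
CPM of 9 genes in each liver (points) by group, with the mean and SD of 3 livers (bars), on linear axes. *Col4a1* and *Tagln* are high in *Ahr* HKO-con alone, *Col3a1* is low in both *Ahr* HKO groups, and *Colec11* is higher on ethanol in both genotypes.

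In *Ahr* HKO mice, the same diets were compared to see how the genes respond to alcohol when *Ahr* is targeted in hepatocytes. Ethanol lowered the genes that had been high in *Ahr* HKO-con, namely *Col4a1*, *Col4a2*, *Tagln*, *Tgfb1* and *Timp1*, together with *Pdgfra*, *Pdgfrb* and *Hhip*. It raised *Ecm1*, *Colec11*, *Des* and *Rgs5* among the quiescent markers and *Col6a2* among the collagens. The 13 DEGs are 38.2% of the 34, against 30.8% of all genes tested, with 5 higher (14.9% of all genes were) and 8 lower (15.9%). Both comparisons use the *Ahr* HKO-con livers and so are not independent of each other. The split depended on the test, with 10 higher of 18 by DESeq2, 8 higher of 15 by limma on quantile-normalised log2(FPKM + 1), and 3 higher of 11 by limma on log2(FPKM + 1). The groups did not overlap for 17 of the 34, against 49.8% of all genes.

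Of the quiescent markers, 4 rose and 1 fell. *Ecm1* rose from 82.7, 89.0 and 101 CPM to 181, 175 and 164 CPM (log2 FC 0.93 ± 0.118, adjusted *P* = 0.00294). *Colec11* rose from 20.9, 19.0 and 18.9 CPM to 35.4, 38.8 and 31.7 CPM (log2 FC 0.85 ± 0.108, adjusted *P* = 0.00294). The *Colec11* levels on ethanol overlapped those of WT-con livers. *Des* rose from 4.07, 4.11 and 4.58 CPM to 5.76, 7.05 and 6.72 CPM, and *Rgs5*, a G protein regulator of pericytes, from 36.5, 39.0 and 32.2 CPM to 48.5, 50.8 and 47.4 CPM (adjusted *P* = 0.0181 and 0.0144). *Hhip* fell (log2 FC -1.22 ± 0.313, adjusted *P* = 0.026). *Lrat* had 38.8, 19.0 and 26.3 CPM on ethanol, overlapping 24.0, 13.9 and 14.1 CPM on the control diet (log2 FC 0.69 ± 0.31, adjusted *P* = 0.129).

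The type IV genes fell. *Col4a1* went from 99.5, 87.2 and 132 CPM to 35.6, 37.4 and 38.5 CPM (log2 FC -1.52 ± 0.171, adjusted *P* = 0.00236), and *Col4a2* from 37.9, 37.5 and 40.8 CPM to 25.2, 26.04 and 26.5 CPM (log2 FC -0.58 ± 0.0867, adjusted *P* = 0.00466). The ratio of *Col4a1* to *Col4a2* in FPKM was 1.40 ± 0.0193 in *Ahr* HKO-EtOH livers. The FPKM sum of the fibrillar genes was 5.67 to 10.04 in *Ahr* HKO-EtOH, overlapping the 4.38 to 9.03 of *Ahr* HKO-con, and none of the 5 passed the edgeR test, with 1 at an unadjusted *P* value under 0.05 (*Col5a1*, log2 FC 0.61), a gene that DESeq2 called. *Col6a2* rose from 2.81, 4.49 and 2.56 CPM to 4.88, 7.66 and 5.48 CPM (log2 FC 0.87 ± 0.266, adjusted *P* = 0.0442). *Col6a1* moved by a similar amount (log2 FC 0.90 ± 0.306) and did not pass (adjusted *P* = 0.0602).

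*Timp1* had 493, 74 and 83 counts in *Ahr* HKO-con and 0, 3 and 0 counts in *Ahr* HKO-EtOH livers. Over the groups this is 650 against 3 counts, a ratio of 230 with TMM-scaled library sizes (95% Clopper-Pearson interval 78.3 to 1120, counting error only). The edgeR test called it with adjusted *P* = 0.00579, and 3 counts correspond to between 0.0425 and 0.0676 CPM per library, so levels within *Ahr* HKO-EtOH were not measurable. *Tagln* fell from 13.1, 20.8 and 20.2 CPM to 4.38, 7.08 and 8.82 CPM (log2 FC -1.42 ± 0.284, adjusted *P* = 0.0112). *Tgfb1* fell from 11.4, 11.3 and 11.8 CPM to 5.73, 6.39 and 6.25 CPM (log2 FC -0.91 ± 0.111, adjusted *P* = 0.00284).

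Both PDGF receptor genes fell. *Pdgfra* went from 8.09, 8.498 and 7.76 CPM to 4.92, 5.63 and 5.84 CPM (log2 FC -0.57 ± 0.124, adjusted *P* = 0.0143). *Pdgfrb* went from 14.6, 18.0 and 11.4 CPM to 8.59, 5.99 and 7.599 CPM (log2 FC -0.99 ± 0.199, adjusted *P* = 0.0115). The groups did not overlap for either receptor. *Acta2* (log2 FC -0.27), *Timp2* (0.17), *Mmp2* (1.14), *Lox* (-0.16), *Loxl1* (-0.18) and *Sparc* (0.70) did not pass.

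Markers of other cells moved in this comparison. All 12 Kupffer cell markers fell, with a median log2 FC of -1.29 and summed levels of 490 to 1291 CPM in *Ahr* HKO-con and 310 to 385 CPM in *Ahr* HKO-EtOH. Of 13 sinusoidal endothelial markers 7 fell, such as *Stab1* (log2 FC -0.89) and *Cdh5* (-0.81), with sums of 588 to 631 and 402 to 449 CPM. Of 16 markers of other leukocytes 4 fell, from sums of 25.4 to 48.2 to sums of 12.1 to 14.6 CPM. No defining marker of these lists was at 0 in all libraries. Their part in the fall of *Tgfb1*, *Timp1* and the type IV genes, which these cells also express, was not tested.

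Of the 23 genes of the TGF-β list 7 fell and 2 rose, with *Skil* at 16.3 and 8.89 CPM (log2 FC -0.87), while the latent TGF-β binding protein gene *Ltbp3* rose (log2 FC 0.77). *Fn1*, the fibronectin gene, which hepatocytes express strongly, fell from 3344 to 1495 CPM (log2 FC -1.16, adjusted *P* = 0.00711), *Col12a1* fell (log2 FC -1.35) and *Col5a3* rose (log2 FC 1.28). Among collagen-maturing enzymes *P4ha1*, a prolyl 4-hydroxylase gene, rose (log2 FC 1.34), and *P3h1* and *Pcolce2* fell (-0.85 and -1.30). *Cyp26a1* and *Dhrs3* rose (log2 FC 4.94 and 1.55).

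The call was kept in all 6 fits that left out a liver for *Ecm1*, *Colec11*, *Rgs5*, *Col4a1*, *Col4a2*, *Tagln*, *Tgfb1*, *Pdgfra*, *Pdgfrb* and *Timp1*. *Col6a2*, *Des* and *Hhip* were each called in 2 of 6, and the number of DEGs ran from 11 to 14.

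**Figure D4:**
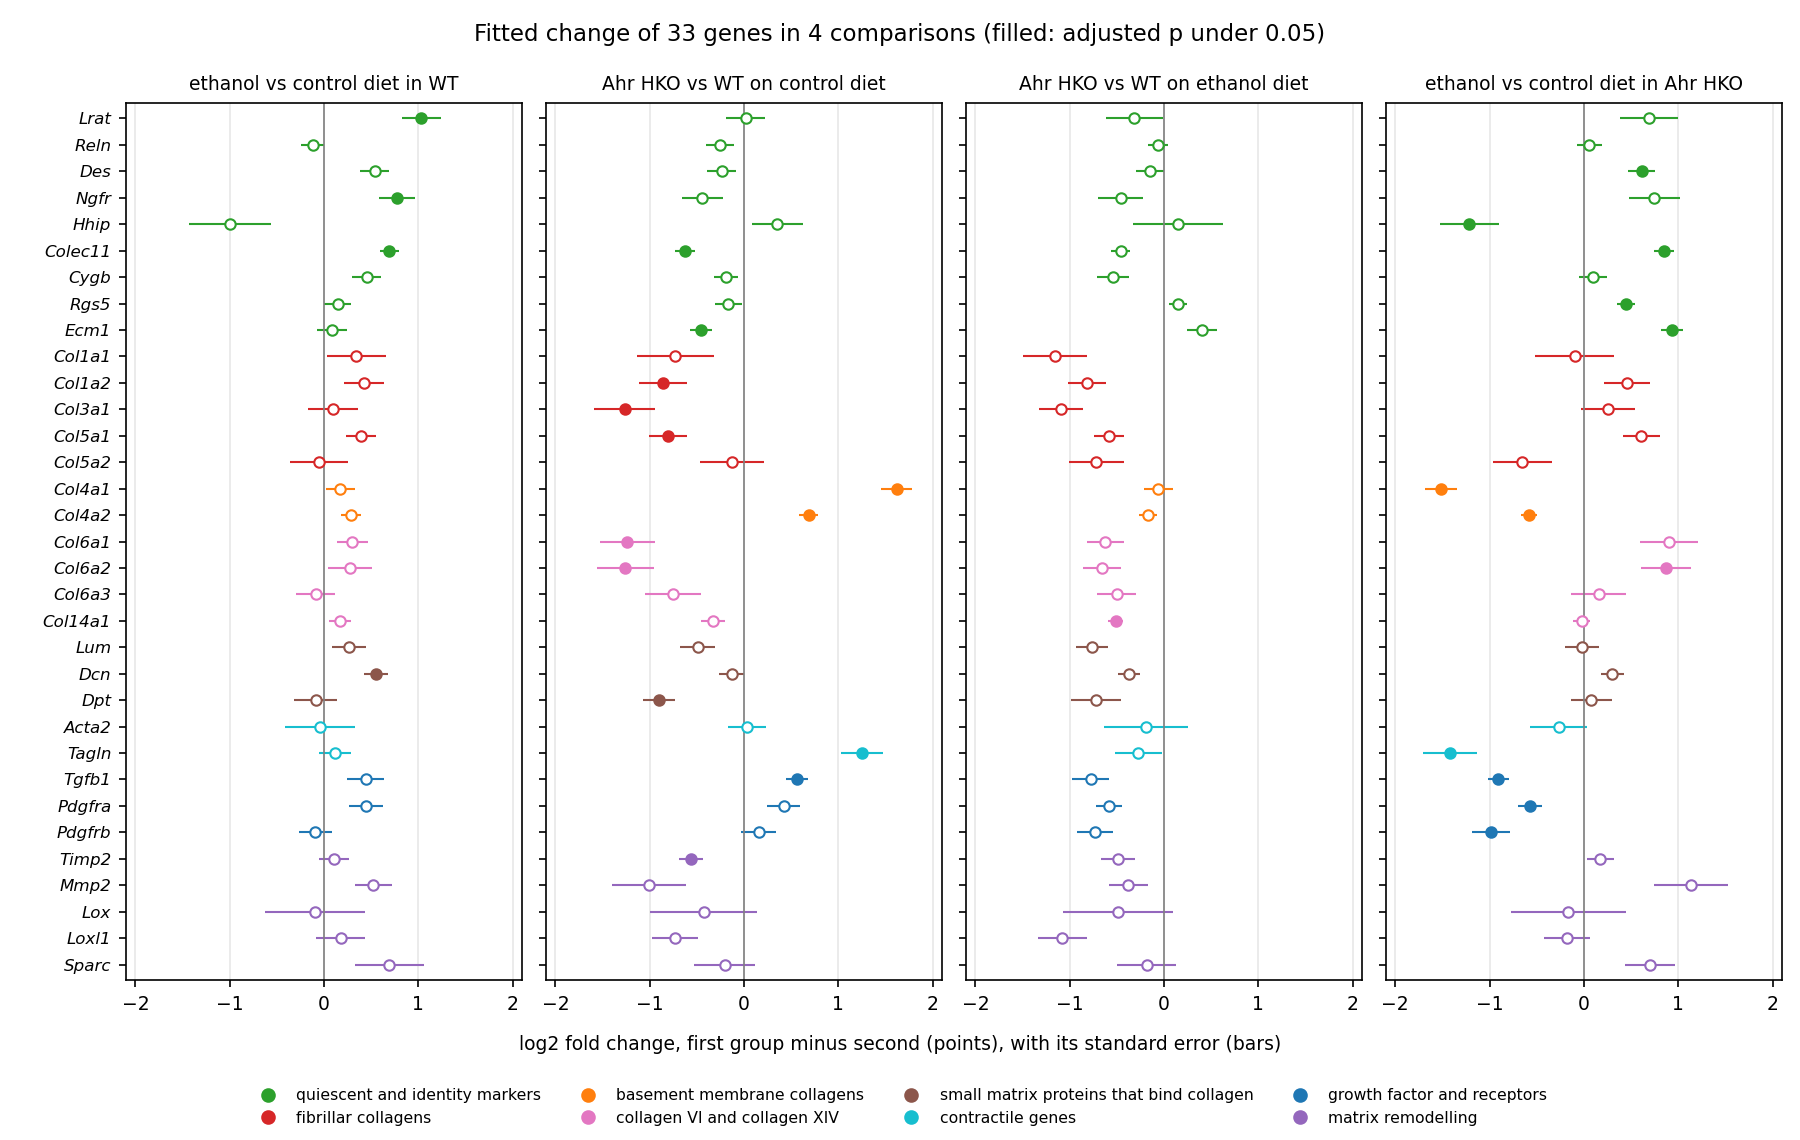
Fitted log2 FC (points) and standard error (bars) of 33 genes in the 4 comparisons of group pairs, coloured by role and filled where the adjusted *P* value was under 0.05; *Timp1* is off the scale and not drawn. In the third panel nearly all points lie left of 0 and only *Col14a1* is filled.

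On the ethanol diet, *Ahr* HKO livers held less of nearly all these RNAs than WT livers, but the edgeR test called a single gene. The log2 FC was negative for 31 of the 34, with a median of -0.495 against -0.00759 over all genes, and the exceptions were *Hhip*, *Rgs5* and *Ecm1*. *Col14a1*, the gene of a fibril-associated collagen, was the DEG, which is 2.94% of the 34 against 1.1% of all genes (0.712% higher and 0.392% lower). The groups did not overlap for 22 of the 34, against 27.9% of all genes. Before adjustment, 21 of the 34 had *P* values under 0.05, a count without a background because the share of all genes at that threshold is not given here.

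*Col14a1* had 48.2, 50.8 and 50.3 CPM in WT-EtOH and 34.5, 35.5 and 34.5 CPM in *Ahr* HKO-EtOH (log2 FC -0.51 ± 0.0808, adjusted *P* = 0.043). The livers of each group lay within a narrow band, but the call was lost whichever of the 6 livers was left out (adjusted *P* 0.068 to 0.189). *Col3a1* had 34.6, 42.5 and 32.2 CPM against 14.4, 23.2 and 13.6 CPM, the groups apart (log2 FC -1.09 ± 0.232, adjusted *P* = 0.0757). *Col1a1* had 16.96, 19.6 and 15.4 CPM against 5.08, 12.3 and 5.80 CPM (log2 FC -1.16 ± 0.338, adjusted *P* = 0.127). Within the 34, all 9 collagen genes outside type IV were lower in every *Ahr* HKO liver than in every WT liver. Their log2 FCs ran from -1.16 to -0.50, and all 9 had an unadjusted *P* value under 0.05. *Col4a1* had overlapping groups at 38.1, 46.7 and 31.2 CPM against 35.6, 37.4 and 38.5 CPM (log2 FC -0.06).

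Of the activation genes, the edgeR test called none of 11, 6 had an unadjusted *P* value under 0.05 and DESeq2 called 5. *Tgfb1* had 9.20, 13.6 and 8.71 CPM in WT-EtOH and 5.73, 6.39 and 6.25 CPM in *Ahr* HKO-EtOH (log2 FC -0.78 ± 0.198, adjusted *P* = 0.101). *Pdgfra*, *Pdgfrb* and *Loxl1* were lower without overlap as well (log2 FC -0.58, -0.73 and -1.08, adjusted *P* = 0.0909, 0.101 and 0.0939). *Timp1* had 107 counts over the WT-EtOH and 3 counts over the *Ahr* HKO-EtOH livers, a ratio of 35.9 with TMM-scaled library sizes (95% Clopper-Pearson interval 11.9 to 177, adjusted *P* = 0.0713 in edgeR). The edgeR test called none of the 9 quiescent markers and DESeq2 called *Colec11*. The 3 with an unadjusted *P* value under 0.05 were *Colec11* and *Cygb*, which were lower in every *Ahr* HKO liver (log2 FC -0.46 and -0.54), and *Ecm1*, which was higher in every one (log2 FC 0.40, adjusted *P* = 0.207).

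DESeq2 called 15 of the 34 in this comparison, all lower, where it called 11.3% of all genes. All 12 libraries in 1 fit gave 5 DEGs, limma on log2(FPKM + 1) 4, and limma after quantile normalisation 0 (18 with an unadjusted *P* value under 0.05). No gene of the TGF-β, PDGF ligand, collagen maturation, protease or retinoid lists passed the edgeR test, with 7, 0, 7, 6 and 2 genes at an unadjusted *P* value under 0.05, and of the other matrix genes *Nid1* was lower (log2 FC -0.81, adjusted *P* = 0.0399). The Kupffer cell markers summed to 477 to 1158 CPM in WT-EtOH and 310 to 385 CPM in *Ahr* HKO-EtOH, the endothelial markers to 371 to 834 and 402 to 449 CPM. No gene of either list passed the edgeR test, while 9 of 12 Kupffer cell and 1 of 13 endothelial markers had an unadjusted *P* value under 0.05, all lower. All 10 portal fibroblast and mesothelial markers tested had a negative log2 FC (median -1.15, sums of 9.57 to 16.5 CPM in WT-EtOH and 7.01 to 7.78 CPM in *Ahr* HKO-EtOH), as had 14 of 16 markers of other leukocytes (median -1.22, sums of 17.4 to 35.8 and 12.1 to 14.6 CPM). The edgeR test called 0 genes of these lists, with 6 and 10 at an unadjusted *P* value under 0.05. The part of these cells in the lower member levels was not tested.

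The interaction of genotype and diet was tested with all 12 libraries to learn for which genes the effect of ethanol differed between genotypes. It differed for 8 of the 34, which is 23.5% against 22.3% of all genes (11.2% higher and 11.1% lower), a share close to the background. The log2 FC of ethanol against the control diet was negative in *Ahr* HKO and lower than in WT for *Col4a1* (log2 difference -1.67 ± 0.231, adjusted *P* = 0.00104), *Col4a2* (-0.85 ± 0.129, adjusted *P* = 0.00167), *Tgfb1* (-1.33 ± 0.225, adjusted *P* = 0.00267), *Tagln* (-1.52 ± 0.355, adjusted *P* = 0.0122), *Pdgfra* (-1 ± 0.215, adjusted *P* = 0.00849), *Pdgfrb* (-0.88 ± 0.289, adjusted *P* = 0.0485) and *Timp1* (adjusted *P* = 0.00198). It was higher for *Ecm1* alone (0.86 ± 0.2, adjusted *P* = 0.0122), which had 107, 125 and 162 CPM in WT-EtOH livers. Among the 34, no fibrillar collagen, collagen VI or small matrix protein gene differed in the edgeR test, DESeq2 or limma. None of them had in edgeR an unadjusted *P* value under 0.05. Of 33 other matrix genes outside the 34, the edgeR test called 9. *Lrat*, *Ngfr*, *Colec11* and *Des*, which were higher on ethanol in WT, had interaction terms of -0.33 ± 0.412, -0.01 ± 0.353, 0.17 ± 0.145 and 0.09 ± 0.205, and none of these passed. *Pdgfrb* was called in 3 of 12 fits that left out a liver and the other 7 genes in all 12, and *Col6a1* was called without *Ahr* HKO-con liver 2. Of the Kupffer cell markers 7 of 12 and of the endothelial markers 1 of 13 differed, all in the same direction as *Tgfb1*. Of the TGF-β list 1 gene differed upward and 6 downward, with *Thbs1* at -2.45 and *Skil* at -1.59.

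**Figure D5:**
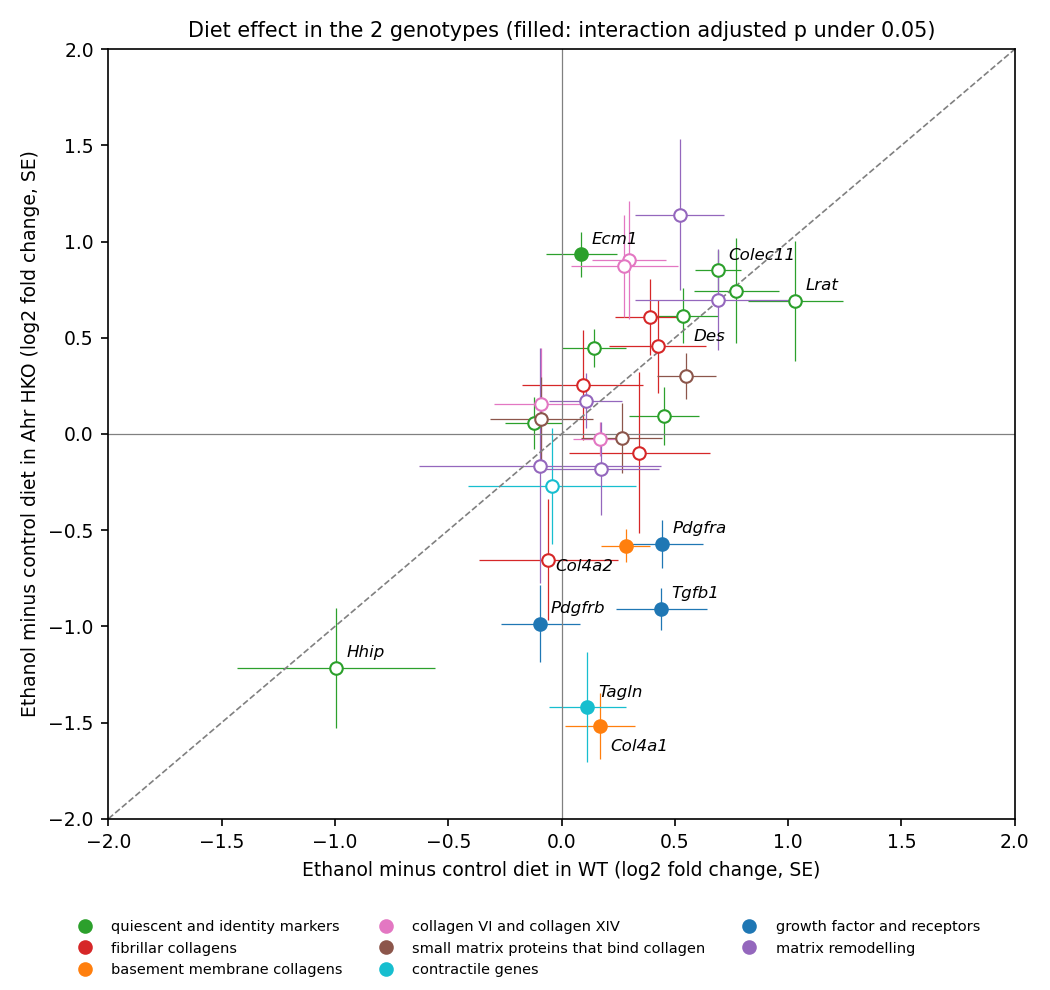
Log2 FC of ethanol against the control diet in WT (horizontal) and in *Ahr* HKO (vertical) for 33 genes, with standard errors, coloured by role; the dashed line marks equal effects and filled points passed the interaction test. *Col4a1* and *Tagln* lie far below the line, *Ecm1* above it, and the quiescent markers *Lrat*, *Colec11* and *Des* near it; *Timp1* is off the scale.

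Quiescent markers and collagen genes were set side by side in each comparison. Their median log2 FCs were 0.45 and 0.28 for ethanol in WT, -0.24 and -0.76 for the genotypes fed the control diet, -0.15 and -0.62 for the genotypes fed ethanol, and 0.61 and 0.16 for ethanol in *Ahr* HKO. Activation genes had medians of 0.175, 0.03, -0.49 and -0.27 in the same order. Per liver, the mean log2 CPM of the 9 quiescent markers minus that of the 9 collagen genes outside type IV was 0.314 ± 0.373 (SD, n = 3) in WT-con, 0.347 ± 0.281 in WT-EtOH, 0.897 ± 0.468 in *Ahr* HKO-con and 0.976 ± 0.316 in *Ahr* HKO-EtOH. The ranges of the 4 groups overlapped, at 0.05 to 0.74, 0.148 to 0.668, 0.368 to 1.26 and 0.619 to 1.22. With all 11 collagen genes, type IV included, the difference was 0.111 ± 0.315, 0.149 ± 0.282, 0.339 ± 0.37 and 0.657 ± 0.264 in the same order. These ranges overlapped as well.

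Minimum folds were also applied to the calls. With an adjusted *P* value under 0.25 and a fold over 1.5 for ethanol in WT, 5 of the 34 passed (14.1% of all genes), *Lrat*, *Ngfr*, *Colec11* and *Timp1* higher and *Hhip* lower. With an adjusted *P* value under 0.05 and a fold over 1.5, 11 passed between the genotypes on the control diet (19.9% of all genes) and 10 for ethanol in *Ahr* HKO (22% of all genes). With an unadjusted *P* value under 0.05 and a fold over 2 between the genotypes on ethanol, *Col1a1*, *Col3a1*, *Loxl1* and *Timp1* passed, all lower, against 6.13% of all genes.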

How the data were processed

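Per the methods and the labels, liver RNA of 12 mice was enriched for polyadenylated RNA, made into stranded libraries and sequenced. The submitters' processing notes name FastQC 0.11.7, Trimmomatic 0.38, HISAT2 2.1.0, Bowtie2 2.3.4.1, StringTie 1.3.4d and mm10. The authors deposited, in a table with a row per gene, the raw read count of each library, which was used for all tests, and FPKM and TPM values, scaled by them for gene length and library size; which tool made which values is not given in the sources used here. The table was used for counts and FPKM, TPM values were summed as a check only, and the strand setting of the counting was not given in the sources used here.

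CPM were computed with TMM factors (0.925 to 1.16). The edgeR 4.0.16 quasi-likelihood test (R 4.3.3) was fitted to the 14038 genes kept by filterByExpr, for each pair of groups on its 6 libraries and for the interaction on 12, with Benjamini-Hochberg adjustment, and was tested on simulated data. A threshold of 0.05 was used, and counts at an unadjusted *P* value are given without the share of all genes. Alternatives were DESeq2 1.42.0, limma 3.58.1 on log2(FPKM + 1) with and without quantile normalisation, upper-quartile factors, no filter, at least 10 counts in every library, all 12 libraries in 1 fit, a replicate block, minimum folds, and leaving out each liver. No libraries had identical counts. A floor of 3 counts corresponded to 0.0425 to 0.0676 CPM, and intervals cover counting error only.

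The members and lists were chosen with earlier results of these data known. All 34 members were eligible to be named, and of the other lists at most 3 genes per list and comparison, those with the largest log2 FC among the ones that passed with a mean of at least 1 CPM, plus every gene covered by a count of 5 or fewer and *Ahr*, *Cyp1a1* and *Cyp1a2*. The lists were TGF-β pathway, PDGF ligands, collagen maturation, other matrix proteins, matrix proteases, retinoid handling, further stellate genes, and markers of hepatocytes, sinusoidal endothelium, Kupffer cells, other leukocytes, cholangiocytes, portal fibroblasts and mesothelium, vascular smooth muscle and erythroid cells. A further list held *Ahr* and its targets. Gene positions came from GENCODE and promoter windows from RefSeq, both on GRCm38. No window was used for *Cygb*, *Col1a1*, *Col5a2*, *Col14a1*, *Lum*, *Dcn*, *Tagln*, *Pdgfrb*, *Mmp2*, *Lox* and *Loxl1*. In GENCODE 20 of the 34 genes overlap another gene, and *Lrat* (within *Rbm46os*) and *Timp1* (within *Syn1*) are covered whole by a gene on the opposite strand. Protein sequences were not used here. Figures were drawn with matplotlib 3.10.9. Some results of the lists are not reported here.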

Additional observations from a re-analysis of the deposited data

Results flagged for a closer look

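The effect of ethanol differed between WT and *Ahr* HKO livers, by the interaction term of edgeR over 12 libraries, for 8 of the 34 genes. The difference in log2 FC, *Ahr* HKO minus WT, was -1.67 for *Col4a1* (0.17 in WT and -1.52 in *Ahr* HKO) and -0.85 for *Col4a2* (0.28 and -0.58). It was -1.52 for *Tagln* (0.11 and -1.42), -1.33 for *Tgfb1* (0.44 and -0.91), -1 for *Pdgfra* (0.44 and -0.57) and -0.884 for *Pdgfrb* (-0.09 and -0.99). For *Ecm1* it was 0.86 (0.09 and 0.93). For *Timp1* the fitted difference was -10.4, which rests on 4, 0 and 9 counts in WT-con and 0, 3 and 0 counts in *Ahr* HKO-EtOH livers and depends on the prior count of the fit. The share of the 34 genes, 23.5%, lay close to the 22.3% of all genes tested.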

How the results depend on the processing

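No log2 FC of the 34 genes reversed in a call under any alternative. With ethanol in WT, 4 genes passed in the reported test, 2 without a filter, 7 by limma on log2(FPKM + 1), 2 by limma after quantile normalisation and 1 to 2 when a liver was left out. Between genotypes on the control diet, 7 to 16 of the 34 passed when a liver was left out, against 14. Between genotypes on ethanol, where 1 passed, DESeq2 called 15, the fit to all 12 libraries 5, limma 4, limma after quantile normalisation 0, the fold minimum 4, and 0 to 2 passed when a liver was left out. Limma after quantile normalisation gave smaller medians: -0.397 for collagens and -0.203 for collagens minus quiescent markers between genotypes on the control diet, -0.265 for activation genes and -0.49 for small matrix proteins between genotypes on ethanol, 0.435 for quiescent markers with ethanol in *Ahr* HKO, and -0.112 for activation genes in the interaction. The causes were not tested. Leaving out a liver moved the median of activation genes to between 0.0719 and 0.353 (ethanol in WT), between -0.631 and -0.302 (genotypes on ethanol), between -0.565 and -0.112 (ethanol in *Ahr* HKO) and between -0.553 and -0.237 (interaction). It moved small matrix proteins to between -0.899 and -0.444 (genotypes on ethanol), and with ethanol in *Ahr* HKO, quiescent markers to between 0.454 and 0.591, collagens to between -0.0362 and 0.457, and collagens minus quiescent markers to between -0.6 and -0.0953. It moved collagens with ethanol in WT from 0.276 to between 0.0718 (without WT-con replicate 1) and 0.327, quiescent markers between genotypes on ethanol from -0.148 to between -0.203 and -0.0209 (without WT-EtOH replicate 3), and activation genes between genotypes on the control diet to between -0.0262 (without *Ahr* HKO-con replicate 2) and 0.133. Of the values of single genes over all alternatives, 444 of 474, 429 of 474, 441 of 474, 436 of 474 and 630 of 644 kept direction and call in the order of ethanol in WT, the genotypes fed the control diet, the genotypes fed ethanol, ethanol in *Ahr* HKO, and the interaction. At this depth *Timp1* was near its limit of detection in WT-con and *Ahr* HKO-EtOH livers.

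The sources used here name no pairing of livers. The deviations of same-numbered pairs correlated at -0.102 to 0.223 and 2 of 18 pairs exceeded 0.1. Both were pairs of a WT-EtOH with an *Ahr* HKO-EtOH liver (0.223 for number 1 and 0.161 for number 2). Pairs with different numbers correlated at -0.222 to 0.169. With 3 livers per group these values can neither show nor exclude a pairing. With the replicate block, 1 gene passed with ethanol in WT, 14 between genotypes on the control diet, 2 between genotypes on ethanol, 15 (8 higher) with ethanol in *Ahr* HKO and 7 in the interaction. The 2 between genotypes on ethanol were *Col1a2* and *Col3a1*, both lower, while *Col14a1*, the DEG of the reported test, did not pass.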

Other observations

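Further stellate cell genes that were not among the 34 moved little on ethanol in WT livers, where of 18 genes *Nt5e*, the gene of an ecto-5'-nucleotidase, rose (log2 FC 1.59) and *Vcl*, the gene of vinculin, fell (-0.41). Between genotypes on the control diet 3 of the 18 rose and 3 fell, with *Steap4*, a metalloreductase gene, up (log2 FC 3.61) and *Vipr1* and *Adamts13* down (-0.71 and -0.69). The median log2 FC of the 18 was -0.00162. *Steap4* had 97.8, 227 and 157 CPM in WT-con and 1888, 1211 and 2761 CPM in *Ahr* HKO-con livers, and which cells held this RNA was not tested. With ethanol in *Ahr* HKO livers *Steap4* fell (log2 FC -3.25), as did *Vcl* (-0.95), *Vim* (-0.81) and *Hgf* (-0.68), and *Vipr1* rose (0.86). The edgeR test called none of the 18 between genotypes on ethanol, and 5 had an unadjusted *P* value under 0.05.

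Vascular smooth muscle markers summed to 127 to 133 CPM in WT-con, 92.7 to 95.2 CPM in WT-EtOH, 61.2 to 76.9 CPM in *Ahr* HKO-con and 108 to 133 CPM in *Ahr* HKO-EtOH. *Mylk* made up most of each sum, and without it, a sum chosen after the values were seen, the other 8 markers had 19.95 to 21.4, 16.4 to 30.6, 23.4 to 24.1 and 30.7 to 39.0 CPM in the same order. Of these 9 markers *Tpm2* rose and *Mylk* fell between genotypes on the control diet (log2 FC 1.23 and -1.23), *Mylk* fell with ethanol in WT (-0.64), and both rose with ethanol in *Ahr* HKO (1.04 and 0.90). Of 10 portal fibroblast and mesothelial markers *Entpd2* fell in *Ahr* HKO-con (log2 FC -0.85) and rose with ethanol in *Ahr* HKO (0.92). Of 7 cholangiocyte markers *Epcam* rose in *Ahr* HKO-con (2.28) and fell with ethanol in *Ahr* HKO (-1.96). Of 7 erythroid markers *Alas2* fell with ethanol in WT (-1.90) and, with *Hbb-b2* (-1.07), in *Ahr* HKO-con (-0.68), and it was higher in *Ahr* HKO than in WT livers on ethanol (1.65). Of 16 leukocyte markers 4 rose and 2 fell in *Ahr* HKO-con, with *Itgam* and *S100a9* among the former (2.43 and 2.07), and *Cd163* was the Kupffer cell marker that rose there (1.03). Of 11 hepatocyte markers 4 rose in *Ahr* HKO-con, such as *Tat* (1.72). The part of these cells in the levels of the 34 genes was not tested.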
